A study of Sus scrofa with 6 samples.

Results

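The genes described here are TEAD1, CTGF, LMCD1, KLF15 and MYOCD, 5 of 2384 genes that could be named on a porcine expression array. TEAD1, LMCD1, KLF15 and MYOCD regulate transcription in the artery wall, and CTGF (connective tissue growth factor, also called CCN2) is a secreted matrix protein. The 5 genes were selected on their levels on the same 6 arrays reported here, and their 9 probes were taken by RefSeq transcript: 4 probes for TEAD1, 2 for MYOCD and 1 for each of the other 3 genes. RNA came from femoral arteries of pigs, taken ex vivo where a puncture made for minimally invasive access had been repaired. TAG, a glue for vessels, had closed 3 of the arteries and Exoseal, a marketed vascular closure device, the other 3. All 6 samples carry the left side in the labels, while the breed, age and sex of the pigs, the time after closure and the number of animals in a group are not given in the sources used here. The p-values below therefore measure only the spread between these samples, which may be technical.

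TEAD1 is a DNA-binding factor that activates little by itself and recruits the coactivators YAP and TAZ, which the kinases of the Hippo pathway keep out of the nucleus. CTGF is among the best known targets of YAP with TEAD factors and is also induced by transforming growth factor beta through SMAD proteins. Myocardin, the product of MYOCD, is a coactivator of serum response factor (SRF) that drives the contractile genes of smooth muscle. LMCD1 is a LIM domain protein that can bind GATA6 and keep it off DNA. KLF15 is a zinc finger factor of muscle, fat and liver that glucocorticoids induce, and in mice it has been described as a repressor of CTGF and of myocardin activity in the heart.

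The arrays differed in ways that touch every value below. The scanner software marked 34.7% to 41.2% of probes as well above background on TAG arrays and 60.6% to 70.8% on Exoseal arrays. The 75th percentile of the processed signal, by which each array was scaled, lay between 19.3 and 36.4 on TAG arrays and between 61.0 and 151 on Exoseal arrays. The 3 TAG arrays and Exoseal replicate 1 were scanned together as slide 1, and Exoseal replicates 2 and 3 as slide 2. The title of Exoseal replicate 1 gives Exoseal and its treatment field gives TAG. Values with this array counted as TAG are among the alternatives at the end.

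Markers of the artery wall were present on every array. The smooth muscle markers on the array (ACTA2, CNN1 and DES, 3 of 10 listed) were above background on all 6 arrays, with a summed linear level of 433 to 511 times the array's 75th percentile on TAG arrays and 191 to 230 on Exoseal arrays. The 2 of 10 fibroblast markers, DCN and IGFBP6, were also above background throughout and summed to 266 to 294 on TAG arrays and 120 to 161 on Exoseal arrays. The 17 of 21 skeletal muscle markers summed to 75 to 101 on TAG arrays and 30.9 to 66.5 on Exoseal arrays, and 11 of them were above background on all 6. Gene by gene these markers shifted little, with a median log2 difference of 0.11 over the 15 above background on at least 3 arrays. Above background were 11, 14 and 12 of the 17 on TAG replicates 1 to 3, against 15, 17 and 15 on Exoseal replicates 1 to 3. By summed level the 8 of 14 macrophage markers were lower in TAG, at 16.2 to 23.9 on TAG arrays and 46.7 to 86.1 on Exoseal arrays. So were the 4 of 10 endothelial markers, at 5.67 to 9.71 on TAG arrays and 14.6 to 53.5 on Exoseal arrays. The 12 of 14 fat markers overlapped, at 132 to 176 on TAG arrays and 140 to 211 on Exoseal arrays. No marker named here was below background on all 6 arrays, and none of the 5 listed erythroid markers was named on the array. More cells of a type cannot be told apart from more RNA per cell in these samples, and the part of these marker shifts in the results below was not tested.

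TEAD1, CTGF, LMCD1 and KLF15 stood higher in TAG arteries by their brightest probe and MYOCD did not. For these 4 of 5 genes every TAG array lay above every Exoseal array after scaling, with differences between 2.10 and 3.03 on the log2 scale (n = 3 arrays per group). All TAG arrays lay above all Exoseal arrays for 19.0% of the 20857 features tested, and the groups did not overlap in either direction for 35.7%. Because the genes were selected on this same contrast, their values are given as a description without a test. All 5 brightest probes were well above background on all 6 arrays, which 11702 of the tested features were. In the plot of levels by array, TEAD1 and CTGF lay above the 75th percentile on nearly all arrays, and LMCD1 was below it on the 3 Exoseal arrays.

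**Figure D1:**
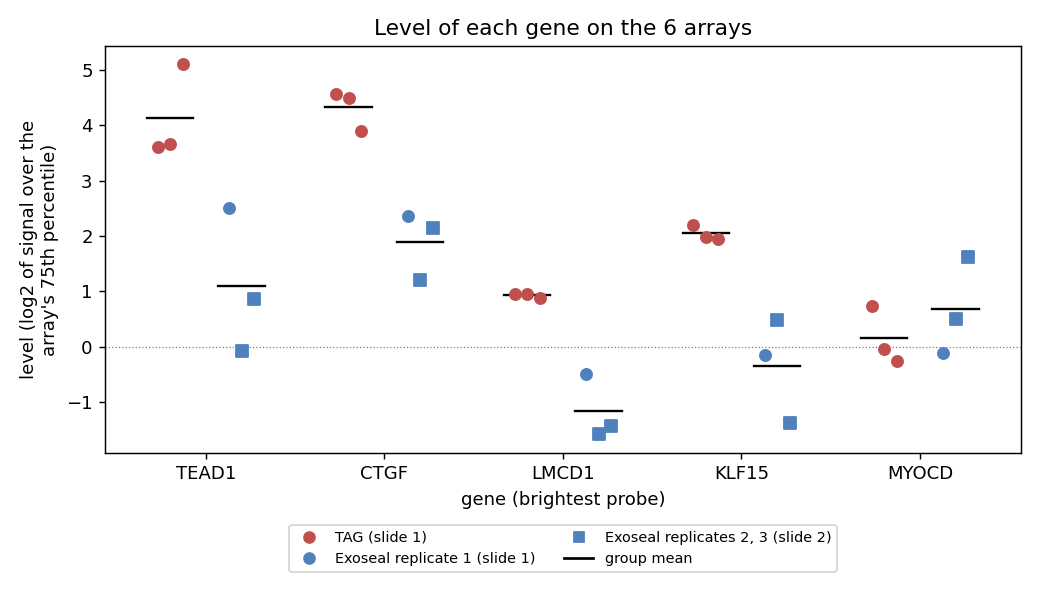
Level of the brightest probe of each of the 5 genes on each array (y axis, log2 of the processed signal over the array's 75th percentile), with TAG left of Exoseal, circles for slide 1, squares for slide 2 and a bar at each group mean (n = 3). TAG and Exoseal points do not overlap for TEAD1, CTGF, LMCD1 and KLF15 and overlap for MYOCD.

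TEAD1, the DNA-binding partner of YAP, had levels of 3.62, 3.67 and 5.10 on TAG replicates 1 to 3, against 2.51, -0.08 and 0.85 on Exoseal replicates 1 to 3 (log2 of the signal over the array's 75th percentile, brightest probe). TAG replicate 3 was the highest of the 6, and Exoseal replicate 1, which shared slide 1 with TAG, was the highest of its group. The means were 4.13 ± 0.84 in TAG and 1.1 ± 1.3 in Exoseal (SD, n = 3 each), a difference of 3.03 ± 0.71 (standard error from limma) or 8.18-fold. That difference was larger than 97.9% of those of all tested features. Against Exoseal replicate 1 alone, within slide 1, it was 1.62, and against Exoseal replicates 2 and 3 it was 3.74.

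The other 3 probes of TEAD1 carry the same transcript name and were dimmer. The second probe averaged -1.25 ± 0.32 in TAG and -1.79 ± 0.17 in Exoseal (SD, n = 3 each), a difference of 0.54. With quantile scaling the difference was 0.29. The groups did not overlap on the level scale but overlapped by rank among all probes of an array. The percentiles were 57.5, 65.7 and 56.1 on TAG arrays and 48.9, 62.3 and 56.9 on Exoseal arrays. This second probe was well above background on 1 of 3 TAG arrays and on 3 of 3 Exoseal arrays. Probes 3 and 4 were well above background on 0 of 3 TAG arrays and on 2 of 3 Exoseal arrays each, so they missed the filter of 3 arrays. At that signal they can set only a ceiling on TEAD1 in TAG arteries. Probe 3 was detected on Exoseal replicate 1 at -0.74, and read -2.51, -1.47 and -2.88 on TAG replicates 1 to 3. Within slide 1 it thus differed by -1.55, opposite in direction to the 1.62 of the brightest probe, against that 1 Exoseal array. On Exoseal replicates 2 and 3 it read -4.08 and -4.47, below the undetected TAG values, which decides nothing. Probe 4 was undetected on Exoseal replicate 1 too, so it neither matches nor contradicts the brightest probe there. The mean of the 4 probes, which includes probes 3 and 4, differed by 1.06 between TAG and Exoseal. Between the brightest and the second probe Pearson's r over the 6 arrays was 0.588, with 2 of the second probe's TAG values not well above background. With each array taken as its deviation from its group mean, r between these 2 probes was -0.291. The difference of 3.03 was read by the brightest probe alone, and the files do not show which part of the transcript each probe reads.

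**Figure D2:**
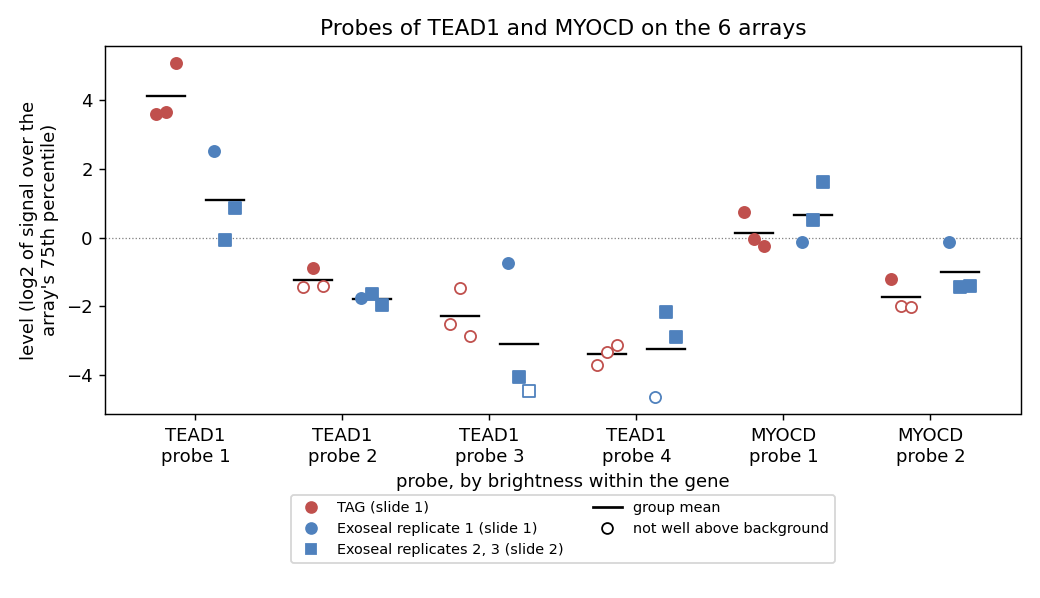
Level on each array of the 4 probes of TEAD1 and the 2 probes of MYOCD, numbered by brightness (y axis, log2 of the processed signal over the array's 75th percentile), with TAG left of Exoseal and open symbols where the spot was not well above background. The brightest TEAD1 probe separates the groups by 3.03, and the 2 dimmest are open on every TAG array.

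CTGF, the matrix protein that YAP with TEAD and TGF-beta both induce, had levels of 4.57, 4.50 and 3.90 on TAG replicates 1 to 3, against 2.36, 1.20 and 2.14 on Exoseal replicates 1 to 3. The TAG arrays lay close together and all above the Exoseal arrays. Its means were 4.32 ± 0.37 in TAG and 1.90 ± 0.61 in Exoseal (SD, n = 3 each), a difference of 2.42 ± 0.48 (standard error from limma) or 5.37-fold. Unlike TEAD1, its value changed little between slides, at 1.97 within slide 1 and 2.65 against slide 2. By rank among all probes of an array, a measure that no scaling moves, CTGF stood at percentiles 96.7, 96.3 and 95.5 on TAG arrays and 90.4, 82.9 and 88.4 on Exoseal arrays.

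LMCD1, the LIM protein that binds GATA6, was the most even of the 5 genes in TAG arteries. It had levels of 0.95, 0.95 and 0.87 on TAG replicates 1 to 3, against -0.49, -1.59 and -1.44 on Exoseal replicates 1 to 3. The TAG mean was 0.93 ± 0.047 and the Exoseal mean -1.17 ± 0.60 (SD, n = 3 each), a difference of 2.10 ± 0.46 (standard error from limma) or 4.29-fold. Exoseal replicate 1 again lay closest to the TAG arrays, and the difference was 1.42 within slide 1 and 2.44 against slide 2. Its percentiles were 83.0, 82.5 and 82.9 on TAG arrays and 69.4, 62.7 and 62.5 on Exoseal arrays.

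KLF15, the glucocorticoid-induced zinc finger factor, had levels of 2.20, 1.99 and 1.95 on TAG replicates 1 to 3, against -0.15, 0.47 and -1.39 on Exoseal replicates 1 to 3. The TAG arrays were close together and the Exoseal arrays spread, with replicate 2 the highest of them and replicate 3 the lowest. Means were 2.05 ± 0.14 in TAG and -0.36 ± 0.95 in Exoseal (SD, n = 3 each), a difference of 2.40 ± 0.54 (standard error from limma) or 5.28-fold. Of the 4 higher genes KLF15 moved least between slides, with 2.19 within slide 1 and 2.50 against slide 2. With normexp background correction and quantile scaling its difference was 1.46 and that of LMCD1 was 0.96.

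MYOCD, the smooth muscle coactivator of SRF, did not separate the groups by its brighter probe after scaling. By its brighter probe the levels were 0.74, -0.04 and -0.26 on TAG replicates 1 to 3, against -0.12, 0.50 and 1.62 on Exoseal replicates 1 to 3. The means were 0.15 ± 0.52 in TAG and 0.67 ± 0.88 in Exoseal (SD, n = 3 each), a difference of -0.52 ± 0.55 (standard error from limma), which was -0.92 against Exoseal replicates 2 and 3 and turned to 0.27 within slide 1. The dimmer probe had -1.20, -2.0 and -2.03 on TAG arrays, where only replicate 1 was well above background, against -0.12, -1.44 and -1.42 on Exoseal arrays. Its difference was -0.75, with overlapping groups on this scale, and -1.14 with quantile scaling. By rank among all probes of an array, the groups of the dimmer probe did not overlap. Its percentiles were 61, 50.6 and 47.5 on TAG arrays and 73.7, 63.9 and 62.7 on Exoseal arrays. Over the 6 arrays the probes of MYOCD hardly followed each other, with a Pearson's r of 0.0223, which includes the 2 TAG values not well above background.

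Before scaling between arrays the picture differed. The processed signal of TEAD1 was 446, 327 and 661 on TAG replicates 1 to 3, against 390, 143 and 110 on Exoseal replicates 1 to 3. For CTGF the signal was 862, 582 and 288 on TAG arrays, against 350, 347 and 268 on Exoseal arrays. In both genes Exoseal replicate 1 lay within the range of the TAG arrays. LMCD1 had signals of 70.5, 49.9 and 35.3 on TAG arrays, against 48.6, 50.1 and 22.5 on Exoseal arrays. KLF15 had 168, 102 and 74.3 on TAG arrays, against 61.7, 209 and 23.3 on Exoseal arrays, so that its highest signal was on Exoseal replicate 2. MYOCD had 60.6, 25.1 and 16.1 on TAG arrays, all below the 63.0, 214 and 188 on Exoseal arrays. Without scaling the groups overlapped for 4 of the 5 genes, all but MYOCD. The share of all features that overlapped was not computed without scaling. A lower unscaled signal in TAG was common: limma then called 10286 of the 20857 features lower and 247 higher. The unscaled differences were 1.32 for TEAD1, 0.72 for CTGF, 0.39 for LMCD1, 0.69 for KLF15 and -2.23 for MYOCD. The median difference of all tested features was -1.67 without scaling and 0.03 with it, so the higher levels of the first 4 genes are levels relative to the other probes of the same array. In the authors' deposited table, which has the same quantiles on every array, the differences were 2.99, 2.46, 1.99, 2.47 and -0.45 in that order of genes.

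**Figure D3:**
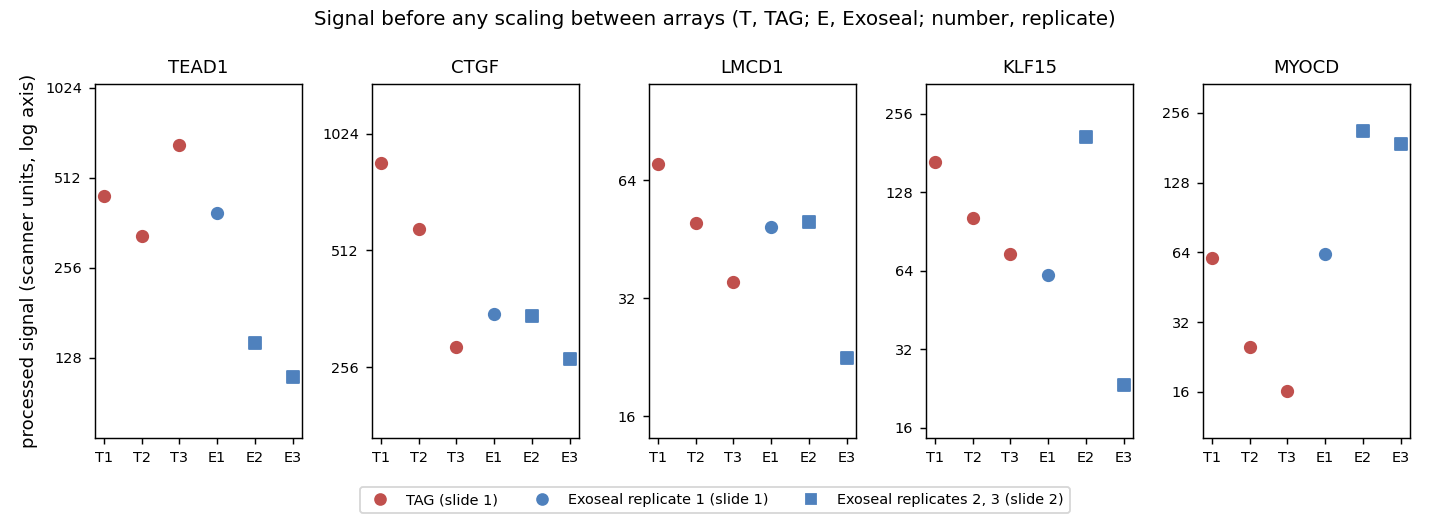
Processed signal of the brightest probe of each gene on each array before scaling (y axis, scanner units on a log axis; x axis, T for TAG and E for Exoseal with the replicate number, circles for slide 1 and squares for slide 2). Exoseal replicate 1 lies within the TAG range for TEAD1, CTGF and LMCD1, and MYOCD is lower on all 3 TAG arrays.

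Over the 6 arrays the levels of the 4 higher genes went together. Pearson's r was 0.967 for CTGF with LMCD1 (Spearman's rho 1), 0.940 for TEAD1 with LMCD1 (rho 0.771) and 0.872 for TEAD1 with CTGF (rho 0.771). It was 0.873 for LMCD1 with KLF15 (rho 0.829), 0.795 for CTGF with KLF15 (rho 0.829) and 0.740 for TEAD1 with KLF15 (rho 0.600). By Pearson's r MYOCD ran against all 4, between -0.604 with TEAD1 (rho -0.600) and -0.329 with CTGF. By rank it hardly did so for CTGF, LMCD1 and KLF15, each with a rho of -0.143. These 10 pairs are a description: the arrays form 2 groups, so each r holds the difference between TAG and Exoseal, and all levels on an array share its scaling. Without the 2 arrays farthest from the median of the gene named first, r for TEAD1 with CTGF was 0.540 over 4 arrays and for CTGF with LMCD1 0.949. Treated so, 3 of the 4 MYOCD pairs stayed below 0, and LMCD1 with MYOCD turned to 0.333.

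Within the groups the pairs parted. With each array expressed as its deviation from its group mean, r was 0.773 for TEAD1 with LMCD1 and 0.670 for CTGF with LMCD1, and 0.356 for TEAD1 with CTGF. KLF15 did not follow the other 3 within groups, at 0.0718 with LMCD1, -0.194 with TEAD1 and -0.481 with CTGF. MYOCD still ran against TEAD1, LMCD1 and KLF15, with -0.550, -0.564 and -0.582, and had 0.180 with CTGF. The log2 ratio of CTGF to LMCD1, which needs no scaling, averaged 3.39 on TAG arrays and 3.07 on Exoseal arrays and spanned 0.822 over the 6 arrays, the narrowest of the 10 pairs. The ratio of TEAD1 to CTGF spanned 2.48 and that of TEAD1 to MYOCD 6.13.

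**Figure D4:**
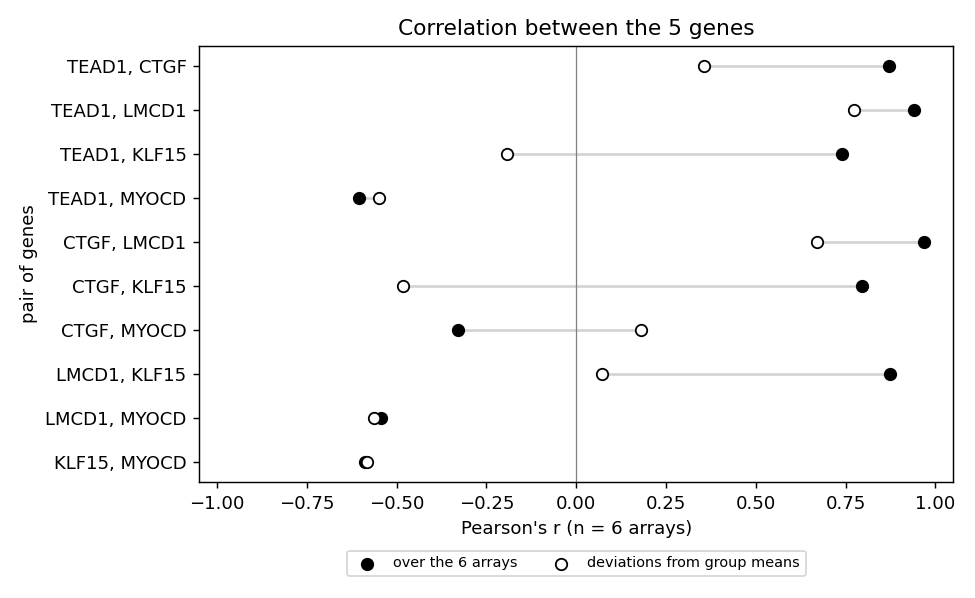
Pearson's r between each pair of the 5 genes (x axis, n = 6 arrays), as filled points over the arrays and as open points over deviations from the group means. The 3 pairs of KLF15 with TEAD1, CTGF and LMCD1 move from 0.740 to 0.873 as filled points to between -0.481 and 0.0718 as open points.

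Among 1078 other named genes above background on all 6 arrays, the gene whose pattern was most like that of TEAD1 was RPS20, a ribosomal protein (Pearson's r 0.987 over 6 arrays), followed by TCF19, DGKA, INHA and ISG12(A), the last at 0.983. For CTGF it was RPS4X, also a ribosomal protein, at 0.998, then DDX39B, NPC2, the matrix proteoglycan gene DCN at 0.981, and SLA-5. LMCD1 was closest to CS (citrate synthase) at 0.998, then to APOA1, GPD1, ADGRE5 and the Krueppel-like factor KLF4 at 0.991. KLF15 was closest to PARK7 at 0.989, then to ISG15, CD40, YIPF5 and VDAC2. MYOCD was closest to PSP-II at 0.995, then to TAC3, CD207, RPL23 and HAS1. An r over 0.95 was common on these arrays: TEAD1 had it with 33 genes, CTGF with 31, LMCD1 with 39, KLF15 with 17 and MYOCD with 2, and the median named gene with 7.

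Of the other genes in the pathways around these 5, few changed. The lists held 65 further genes on the array, of which 57 passed the filter. With p-values from limma adjusted by the Benjamini-Hochberg method across the 20857 features, 5 of the 57 rose in TAG at the 0.05 threshold and 0 fell, or 8.77%. Over all features 10.3% passed, with 6.59% higher in TAG, so the share among the listed genes was near that of all features. The median log2 difference of the 57 genes was 0.27, beside 0.03 for all features. Its sign depended on the setting: it was 0.82 as the mean of each gene's probes, -0.20 with median scaling and -0.18 with slide as a block. Without TAG replicate 1, 2 or 3, or without Exoseal replicate 2 or 3, limma called 0 of the 57, with 8 to 16 at an unadjusted p under 0.05. Those fits also called 0 of all 20857 features. Without Exoseal replicate 1 limma called 21 of the 57 (36.8%), of which 15 rose and 6 fell. That fit called 6957 of the 20857 features, 4231 higher and 2726 lower in TAG, so the added calls were not particular to the listed genes.

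The listed Hippo components and targets of YAP and TEAD did not pass. CTGF is not counted among them, and no test is given for it because it was selected on this same contrast. Of 3 Hippo and TEAD cofactor genes tested, 0 passed in limma and 0 had an unadjusted p under 0.05. TEAD4, a second TEAD factor, differed by -0.20 by its brightest probe and 0.20 as the mean of its probes, LATS2, a kinase that inhibits YAP, by 0.48, and VGLL3, a cofactor that binds TEAD factors, by 1.87 ± 0.87 (adjusted p = 0.184). VGLL3 turned to -0.42 within slide 1 and had 3.01, past the threshold, without Exoseal replicate 1. TEAD3 was well above background on 0 of 3 TAG arrays and missed the filter. Among 10 target genes 0 passed in limma and 4 had an unadjusted p under 0.05, and the list's median was 0.50. F3 (tissue factor) came nearest, with 1.82 ± 0.53 (adjusted p = 0.0556), and passed with quantile scaling at 1.56. It had 0.85 within slide 1 and 0.45 with normexp and did not pass in either, and 2.30, past the threshold, without Exoseal replicate 1. ANKRD1, an ankyrin repeat protein used as a readout of YAP, had 1.56 ± 0.60 (adjusted p = 0.117), but 0.19 within slide 1. Without Exoseal replicate 1 it had 2.24, past the threshold. AXL, a receptor tyrosine kinase, differed by -1.01 (adjusted p = 0.164) and by -0.04 as the mean of its probes. EDN1, also at an unadjusted p under 0.05 in limma, had 1.45 ± 0.61 (adjusted p = 0.146). Unlike F3 and ANKRD1 it was larger within slide 1, at 2.72. Other members of the CCN family could not be named on the array.

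Contractile genes that myocardin and SRF drive rose in part, while MYOCD itself did not separate the groups by its brighter probe after scaling. Of 8 tested, 3 rose and 0 fell, with a median of 1.08. ACTA2, smooth muscle actin, was 2.22 ± 0.43 higher on the log2 scale in TAG (adjusted p = 0.0242), and with slide as a block it did not pass, at 1.89. TPM1, tropomyosin 1, was 1.95 ± 0.54 higher (adjusted p = 0.0497) by the brightest of its 21 probes, and 0.76 as the mean of them, which did not pass. DES, the intermediate filament desmin, was 1.52 ± 0.40 higher (adjusted p = 0.0447) and did not pass with quantile scaling, at 0.75, or with slide as a block, at 1.50. With median scaling 0 of the 8 passed in limma (3 at an unadjusted p under 0.05), and with quantile scaling 2 rose and 1 fell. With Exoseal replicate 1 counted as TAG, TPM1 (0.78) and DES (1.16) did not pass, and ACTA2 did. The other 5 did not pass, with MYLK (myosin light chain kinase) at -1.37, VCL (vinculin) at -1.13 (0.18 as the mean of its probes), CNN1 (calponin) at 0.74, CAV1 (caveolin 1) at 1.22 and TPM2 at 0.94. The smooth muscle marker sum given above shares ACTA2 and DES with this list. Among LIM and SRF cofactors 0 of 4 passed in limma, 2 at an unadjusted p under 0.05: PDLIM3, a LIM protein of muscle, had 1.48 ± 0.56 (adjusted p = 0.114) and HOPX, a homeodomain protein that restrains SRF, -1.45 ± 0.53 (adjusted p = 0.103). As the mean of its probes HOPX had -0.03.

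In limma 1 of 9 other wall transcription factors (11.1%) and 1 of 13 other Krueppel-like factors (7.69%) passed. These shares were near the 10.3% of all features. GATA6, the smooth muscle factor that LMCD1 binds, rose by 2.65 ± 0.46 (adjusted p = 0.0219), at -0.32 ± 0.13 in TAG and -2.97 ± 0.61 in Exoseal (SD, n = 3 each), and by 1.99 within slide 1 and 0.62 with normexp, and it was well above background on 3 of 3 TAG arrays and 2 of 3 Exoseal arrays. It was the 1 of 9 other wall transcription factors tested that passed, and this list's median was 0.60. MEF2A, a factor of muscle genes, had 1.11 (adjusted p = 0.121) and averaged 0.43 over its probes. KLF4, the factor of smooth muscle switching, rose by 2.50 ± 0.52 (adjusted p = 0.0276) and was the 1 of 13 other Krueppel-like factors that passed. With slide as a block it did not pass, at a difference of 1.50, and with normexp it was 0.96. The median of these 13 was 0.25, and 0.96 as the mean of each gene's probes. KLF7 was well above background on 0 of 3 TAG arrays and did not pass.

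Genes upstream of CTGF in TGF-beta signalling, and glucocorticoid and clock genes around KLF15, showed no change that passed in the main fit. That fit used percentile scaling, the brightest probes, the filter of 3 arrays and all 6 arrays without a slide term. Of 6 TGF-beta genes 0 passed in limma, 1 at an unadjusted p under 0.05, with a median of -0.42, which turned to 0.81 as the mean of each gene's probes. The ligands TGFB1 and TGFB3 differed by -0.42 and -0.41 by their brightest probes, but by 0.78 and 1.20 as the mean of their probes. The common mediator SMAD4 differed by -1.27 ± 0.49 (adjusted p = 0.119), but by 1.14 as the mean of its probes. The coreceptor ENG differed by 0.84 ± 0.69 (adjusted p = 0.446), turned to -0.68 within slide 1 and had 1.61, past the threshold, without Exoseal replicate 1. Of 6 glucocorticoid and clock genes 0 passed in limma, 1 at an unadjusted p under 0.05, with a median of -0.44, or 0.27 as the mean of each gene's probes. HSD11B1, the enzyme that regenerates active glucocorticoid, had -1.54 ± 0.45 (adjusted p = 0.0592) and averaged -0.20 over its 6 probes. It passed among features above background on all 6 arrays, at the same difference, and without Exoseal replicate 1, at -1.495. NR3C1, the glucocorticoid receptor, differed by 0.26. ARNTL, a core clock factor, was well above background on 0 of 3 TAG arrays and 3 of 3 Exoseal arrays, so it met the filter through Exoseal alone. Its fitted difference of -1.06 did not pass (adjusted p = 0.232) and was -0.14 as the mean of its probes. By its brightest probe it passed with slide as a block, at -2.15, and with quantile scaling, at -1.85. Both values rest on TAG readings that were not well above background.

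**Figure D5:**
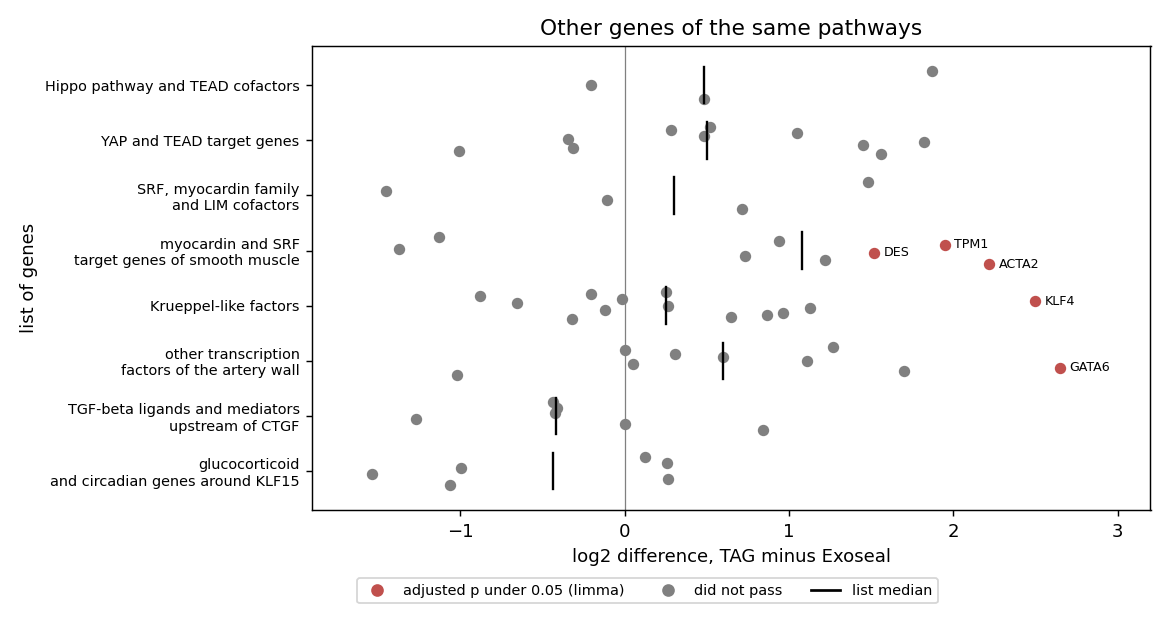
Log2 difference, TAG minus Exoseal, of each tested gene of the pathway lists (x axis; y axis, list; red, adjusted p under 0.05 in limma; grey, did not pass; bar, list median). The 5 genes that passed, DES, TPM1, ACTA2, KLF4 and GATA6, all lie above 0, and the list medians run from -0.44 to 1.08.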

How the data were processed

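RNA of 3 TAG and 3 Exoseal samples, grouped by title, was hybridised with 1 dye (Cy3) to Agilent arrays, per the labels' protocols. Per the file headers, the deposited intensity values come from Agilent Feature Extraction 11.0.1.1, which subtracted background within each array without scaling between arrays. The authors' deposited log2 table has one distribution on all arrays. The sources used here name neither its software nor the genome build of the array design, so no coordinates are given.

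Control spots and outlier flags were left out (no spot of the 9 probes was flagged), log2 processed signal was scaled to each array's 75th percentile, and probes were named by unversioned RefSeq accession through a table of Sscrofa11.1. The brightest probe stood for a gene. Features well above background on at least 3 of 6 arrays were tested across all genes with limma 3.58.1 in R 4.3.3 (two-sided, Benjamini-Hochberg, threshold 0.05), after a check on simulated data. Alternatives included quantile and median scaling and normexp on the median spot and background signals with an offset of 50. No spot of the 9 probes was saturated, and the number of arrays limits precision.

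The 5 genes and the gene lists were chosen with earlier results of these data known. Genes were named by a fixed rule: all members, up to 6 called genes per list and direction or else the 2 with the smallest p, and the 5 genes of highest r to each member. Other list genes are given for context, chosen after their values were seen.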

Additional observations from a re-analysis of the deposited data

How the results depend on the processing

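The 5 genes and the counts were recomputed with other scalings, background corrections, filters, probe rules, slide terms and with single arrays left out, and without scaling, which was added after seeing the data. TEAD1 (3.03) had 1.06 as the mean of its probes, 1.62 with slide as a block or within slide 1, and 1.32 without scaling. LMCD1 (2.10) had 1.64 with median scaling, 0.96 with normexp, 1.42 with slide as a block or within slide 1, and 0.39 without scaling. KLF15 (2.40) had 1.46 with normexp and 0.69 without scaling, and CTGF (2.42) had 0.72 without scaling. MYOCD (-0.52) had 0.27 with slide as a block or within slide 1, and -2.23 without scaling. With Exoseal replicate 1 counted as TAG, the differences were 3.34 for TEAD1, 2.16 for CTGF, 2.09 for LMCD1, 1.955 for KLF15 and -0.98 for MYOCD. DES turned to -0.19 without scaling. The median of all features, 0.03, became -0.43 with median scaling, 0.17 with a percentile over probes detected throughout and -1.67 without scaling. Of 2139 calls, median scaling gave 1105, normexp 1152, Exoseal replicate 1 counted as TAG 3529 and no scaling 10533, of which 2.35% were higher in TAG, against 64.2%. Quantile scaling made that share 49.1%, median scaling 46.0% and slide as a block 53.1%. Of the 5 listed genes called, median scaling left 2, Exoseal replicate 1 counted as TAG gave 12 and no scaling 23, all lower in TAG. Leaving out single arrays gave 0 to 6957 features and 0 to 21 listed genes, the upper values without Exoseal replicate 1. With no filter, and with a replicate block, limma called 0 features and 0 listed genes, with 13159 and 5699 features, and 15 and 14 listed genes, at an unadjusted p under 0.05. Same-numbered samples deviated with r of -0.20, 0.07 and -0.08, and 1 of 6 correlated best with its own number. With 3 arrays per group and Exoseal replicates 2 and 3 on another slide, these values can neither show nor exclude pairing. Whether the numbers pair the samples is therefore not known. The cause of these shifts was not tested.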
